A study of Drosophila melanogaster with 2 samples.

Results

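The 10 genes described here carry the insulin and TOR growth signal of Drosophila melanogaster or restrain it: InR, Pi3K92E, Pi3K21B, Akt, foxo, Tor, S6k, Thor, scyl and chrb. They were chosen by name for their place in the pathway with earlier results of these data known, out of 13945 protein-coding genes (18164 genes of all kinds) on the 6 chromosomes that hold peaks. The peaks given for them were selected on measured values: the peak list and the position of each summit. The counts of peaks per gene are therefore descriptions and carry no test.

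The study mapped NC2alpha, a subunit of negative cofactor 2, which sits with its partner NC2beta on TATA-binding protein at promoters and can block the next steps of initiation. The embryos came from a transgenic line that stably expresses NC2alpha with eGFP at its C terminus, were of mixed sex and were collected whole at 0 to 24 hours. Chromatin was sheared by sonication to 200 to 800 bp and precipitated with an antibody to GFP in 2 biological replicates. There was 1 group, with no other stage, treatment or genotype to compare, and whole embryos mix all tissues and stages, so that no peak can be given to a cell type.

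In the insulin pathway, a ligand outside the cell activates the receptor InR, phosphoinositide 3-kinase makes a membrane lipid, and the kinase Akt is recruited and switched on. Akt keeps the transcription factor foxo out of the nucleus and favours the kinase Tor, which promotes translation through S6k and by holding back Thor. foxo is known to activate InR and Thor when insulin signalling is low, and scyl and chrb are known as stress-induced inhibitors of Tor, so that several of these genes are themselves controlled at transcription.

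Signal means the authors' value for a peak relative to a control alignment. No source used here gives its scale or the sequencing depth. The authors' list of reproducible peaks (the optimal list) held 2174 peaks with a median signal of 118, and these were the 2174 strongest of 30000 peaks called on the pooled replicates. By its label, that pooled list holds peaks and background as input for the reproducibility filter. A pooled peak outside the optimal list is therefore not a call of binding. Signals in the pooled list reached 1230 and those in the optimal list went down to 81.95. Each replicate had its own list of 30000 peaks, and the replicate value of a peak is that of the strongest overlapping peak there. Over the 2158 optimal peaks found in both replicate lists, replicate 1 was 1.31 times replicate 2 at the median, with a 10th percentile of 0.837 and a 90th percentile of 2.53.

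NC2alpha peaks lay at the start sites of most of the 10 genes, and in the pooled list the strongest of these were at Thor and scyl. An optimal summit lay within 500 bp of an annotated transcription start site (TSS) in 7 of 10 genes, namely Thor, scyl, chrb, InR, Pi3K21B, Pi3K92E and S6k. The share among all protein-coding genes was 10.5%, and nothing is read from the difference, since the genes were picked with these values in view. With the gene body and the flanking intergenic intervals searched as well, 9 of 10 genes held an optimal summit, against 16.6% of protein-coding genes. The intervals searched were long, with a median of 15914 bp against 3683 bp for all protein-coding genes, and the share among the 2253 genes with an interval at least that long was 31.3%. Akt and foxo had optimal peaks near the gene but none within 500 bp of a start, and Tor had none. In the pooled list before the reproducibility filter, all 10 genes had a summit at a start site, as did 51.3% of protein-coding genes. That list includes background, and at the Akt start the -log10 q value was only 0.626, against at most 3.59 in the optimal list.

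**Figure D1:**
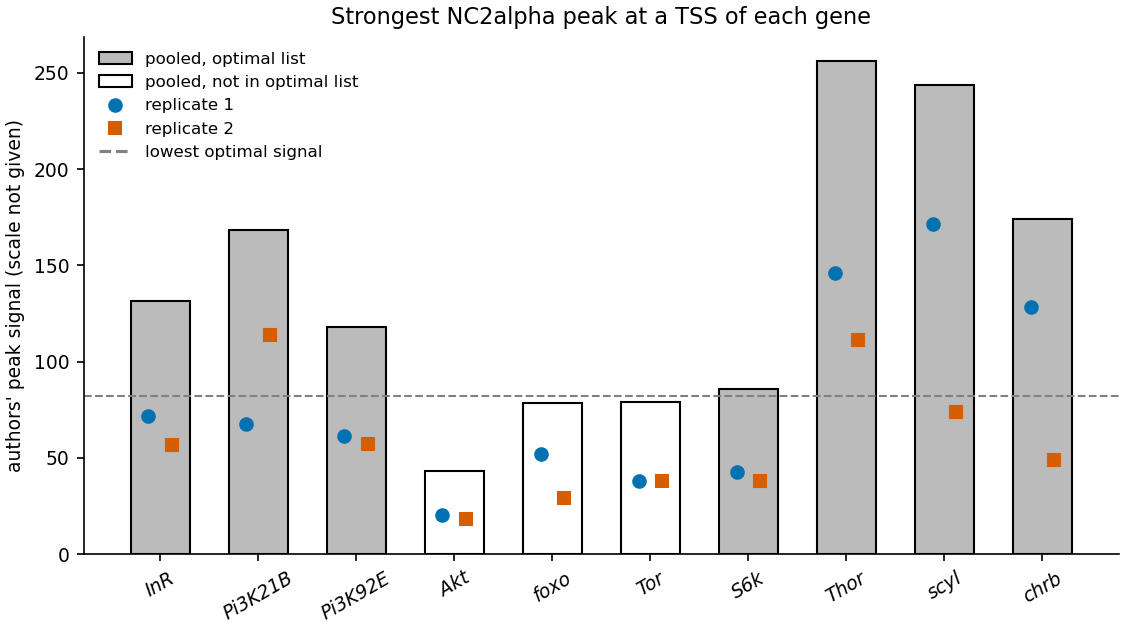
The signal of the strongest NC2alpha peak within 500 bp of a TSS is shown for each gene. Bars give the pooled value, filled for optimal peaks and open for others, circles and squares give the replicate values, and the dashed line marks the lowest optimal signal. Thor and scyl stand highest at 256 and 244, while Tor (79.0) and foxo (78.5) lie just under the line and Akt (43.1) well under it.

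In the pooled list and in replicate 1, but not in replicate 2, Thor, scyl and chrb had the strongest start-site peaks of the 10 genes. That order rests on the 500 bp window, since within 1000 bp InR ranked 66 in the pooled list and Thor 188. Thor, scyl and chrb were the only ones of the 10 with TATAAA at the usual distance before the start. Their promoters are printed here because that match is what they share and the other 7 lack. Each line runs from 120 bases before the representative TSS to 29 bases after it, 5′ to 3′ on the gene's strand, from the RefSeq Release 6 (dm6) genome, and capitals mark TATAAA. They lie at chr2L:3478314-3478463 (plus strand), chr3L:11252187-11252336 (plus strand) and chr3L:11487430-11487579 (plus strand).
Thor: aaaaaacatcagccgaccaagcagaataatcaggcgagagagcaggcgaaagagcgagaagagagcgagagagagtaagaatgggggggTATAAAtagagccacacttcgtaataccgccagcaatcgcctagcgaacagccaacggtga
scyl: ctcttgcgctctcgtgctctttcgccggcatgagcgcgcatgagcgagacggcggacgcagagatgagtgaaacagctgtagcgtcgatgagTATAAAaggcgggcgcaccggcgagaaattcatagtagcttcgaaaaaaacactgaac
chrb: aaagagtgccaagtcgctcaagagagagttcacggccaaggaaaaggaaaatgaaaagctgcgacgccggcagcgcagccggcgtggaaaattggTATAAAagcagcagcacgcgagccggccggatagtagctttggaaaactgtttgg

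Counted with the TSS as 0, TATAAA began at -31 bp in Thor, -28 bp in scyl and -25 bp in chrb. Among all protein-coding promoters, 8.85% (1234 of 13945) had TATAAA on the gene's strand beginning 45 to 20 bp before the TSS. Among the 1265 promoters with an optimal summit within 500 bp of the representative TSS, 59 had it, or 4.66%. Ordered by signal within those 59, Thor took place 4, scyl place 6 and chrb place 15. The other 7 genes lacked the letters at that distance. A match describes letters only and does not show a site in use.

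Over the printed bases, the longest runs shared by pairs of the 3 promoters were 8 to 10 bases. The longest run common to scyl and chrb was atagtagctt, 10 bases that begin 3 bp after the start in scyl and 5 bp after it in chrb. It stood on the gene's strand in 7 of 13945 promoters, scyl and chrb included, each taken as the 250 bases before the TSS and the 50 from it on. The longest run shared by Thor and scyl was 8 bases, and that shared by Thor and chrb was 9 bases of the repeat agagagagt. A run of 8 bases is not particular to these 3, since Thor shared 8 with the Pi3K92E promoter printed below. The run atagtagctt was noticed after the sequences had been read, so it is given with no test.

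Thor, also called 4E-BP, binds the translation initiation factor eIF4E and holds back cap-dependent translation until Tor phosphorylates it. The gene (FBgn0261560) spans chr2L:3478434-3479612 on the plus strand, 1179 bp, with annotated starts at 3478434 and 3478522. Its peak had a signal of 146 in replicate 1 and 111 in replicate 2, and 256 in the pooled list, rank 188 of 30000. Both replicates placed it about equally high, at rank 201 and rank 207 of their own lists. The summit at 3478490 lay in the 5′ UTR, 56 bp after the upstream start and at -32 bp from the downstream one, so the peak covers both starts and cannot be given to one of them. The only other pooled peak in its 3106 bp interval was weak, at 50.3. Thor's upstream promoter held 6 matches to GAGAG, the core of the GAGA factor motif, beginning between -85 and -50 bp, some of which overlap. GTAAACA, a core that foxo binds, began 7 bp after the downstream start and was absent from the window of the upstream, representative one. With only the representative start of each gene searched, 9.16% of all promoters held it on either strand.

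scyl and chrb are the fly counterparts of mammalian REDD1 and restrain Tor through the TSC complex, chiefly in low oxygen and other stress. scyl (FBgn0041094, chr3L:11252307-11256172, plus strand) has 1 annotated start. Its start-site peak measured 172 in replicate 1 and 73.8 in replicate 2, and 244 in the pooled list, rank 219. The replicates were further apart than usual: the ratio of 2.33 was higher than that of 88.1% of optimal peaks, and the rank was 123 in replicate 1 and 543 in replicate 2. The summit at 11252327 lay 20 bp into the 5′ UTR. A second optimal peak stood in the intergenic interval downstream, 8163 bp from the start, with 77.5 in replicate 1, 54.4 in replicate 2 and 129 in the pooled list. None of the 7 motifs searched was found in the 300 bases around that downstream summit.

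chrb (FBgn0036165, chr3L:11487550-11499055, plus strand) has annotated starts at 11487550 and 11493871. At the upstream start its peak measured 129 in replicate 1 and 48.8 in replicate 2, with 174 in the pooled list, rank 498. As at scyl, replicate 1 was the higher, with a ratio of 2.63 that exceeded 91.1% of optimal peaks, and the ranks were 272 and 1219. The summit at 11487640 lay 90 bp into the 5′ UTR. The downstream start had only a pooled peak of 27.6, close to the lowest signal in that list of 23.8. A second pooled peak, 289 bp after the upstream start, measured 77.0, so that the upstream start had the higher signals by far.

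InR, the receptor tyrosine kinase that binds the insulin-like peptides, had the most optimal peaks of the 10 genes, and its strongest lay inside the gene. The gene (FBgn0283499) spans chr3R:21570248-21619321 on the minus strand, 49074 bp, with annotated starts at 21619321, 21619036, 21592121 and 21590191. Only 3.61% of protein-coding genes had a longer interval to search than InR's 51154 bp, and 46 protein-coding genes held at least 4 optimal summits. The strongest of its 4 optimal peaks measured 283 in replicate 1 and 116 in replicate 2, and 399.7 in the pooled list, rank 66. It was thus stronger than any start-site peak of the 10 genes, and it ranked 35 in replicate 1 and 181 in replicate 2. Its summit at 21590842 is intronic, between the internal starts, at -651 bp from the start at 21590191 and 1279 bp after the start at 21592121. The pooled peak nearest to the start at 21590191, at -38 bp, had a signal of only 27.2.

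The 201 bases around that intronic summit are printed because they underlie the strongest peak of the 10 genes; they lie at chr3R:21590742-21590942 on dm6 and are written 5′ to 3′ on InR's own minus strand. Capitals mark the single match, GAGAG on the opposite strand, which reads CTCTC here; 41.1% of the optimal peaks held GAGAG within 300 bases.
InR: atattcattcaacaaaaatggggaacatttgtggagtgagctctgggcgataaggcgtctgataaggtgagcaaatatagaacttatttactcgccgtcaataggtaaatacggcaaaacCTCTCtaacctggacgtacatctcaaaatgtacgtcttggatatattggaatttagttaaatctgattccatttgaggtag

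The other optimal peaks of InR lay nearer its first start. An intronic peak at 21613540, 5781 bp after the first start, measured 207 in replicate 1, 76.2 in replicate 2 and 286 in the pooled list, rank 143. A weaker one at 21614971 measured 68.2 in replicate 1, 24.0 in replicate 2 and 92.2 in the pooled list. The peak at the first start, with its summit 2 bp from it, measured 71.6 in replicate 1, 56.8 in replicate 2 and 131 in the pooled list, rank 878. The 3 intronic peaks had replicate ratios of 2.44, 2.72 and 2.84, whereas the start-site peak had 1.26, near the median of all optimal peaks. None of the 7 motifs was found in the 300 bases around the start-site summit.

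**Figure D2:**
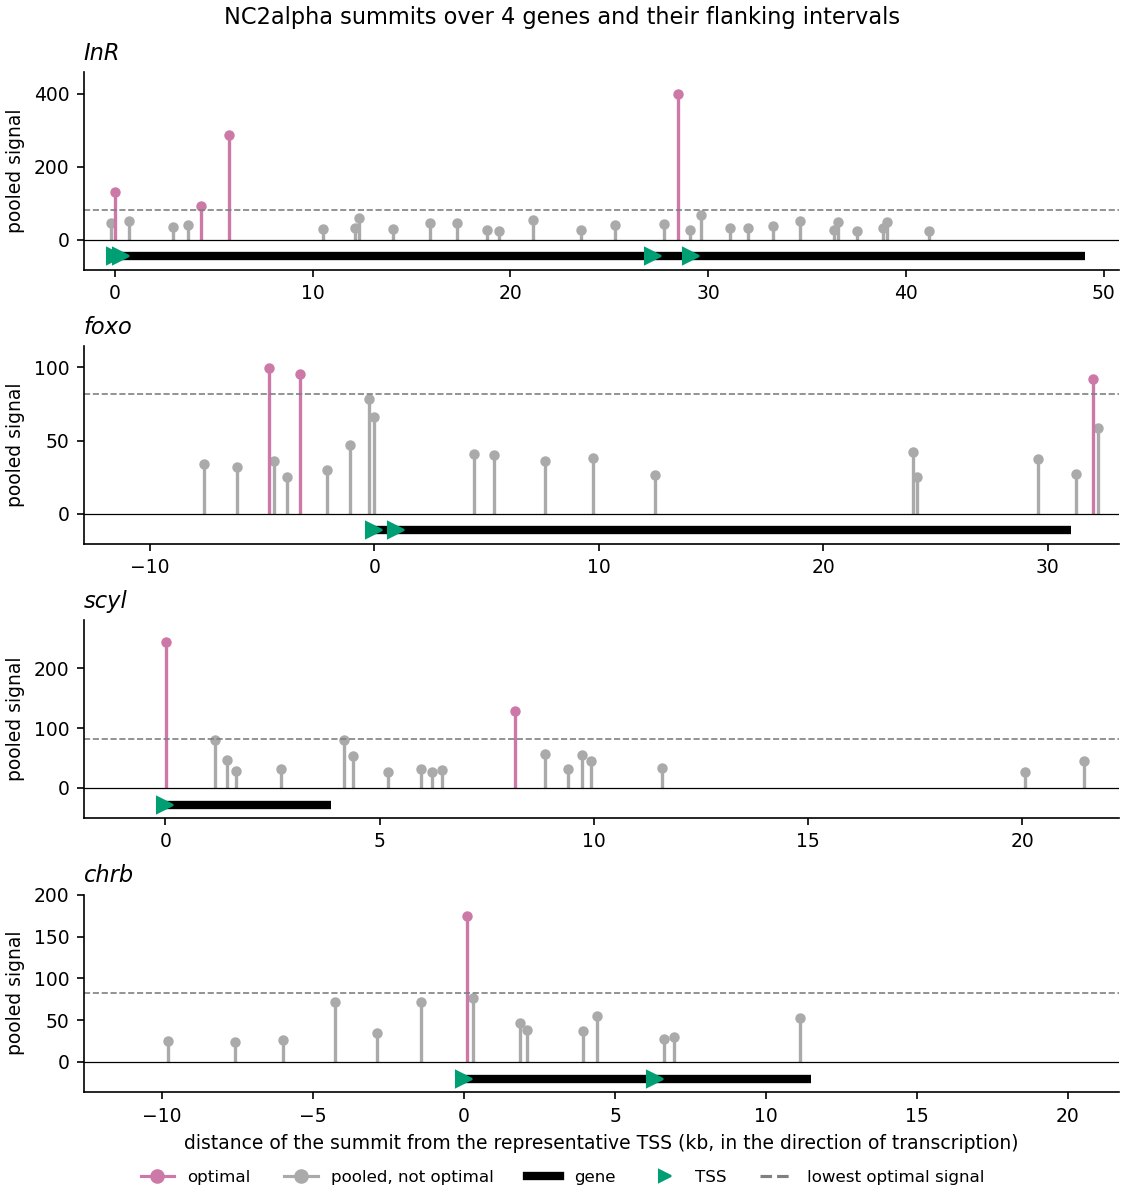
Every pooled summit over InR, foxo, scyl and chrb is drawn as a stem whose height is its signal, against its distance in kb from the representative TSS; the bar under each panel is the gene and triangles are annotated starts. Optimal summits are coloured, and the dashed line marks the lowest optimal signal. At InR the tallest stem (399.7) stands within the gene, at scyl and chrb it stands at the start (244 and 174), and at foxo the 3 optimal summits flank the gene.

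Phosphoinositide 3-kinase consists of a catalytic subunit, encoded by Pi3K92E, and a regulatory subunit, encoded by Pi3K21B, and both genes had an optimal peak at a start. Pi3K21B (FBgn0020622, chr2L:297880-305233, plus strand) was the one start-site peak of the 7 that was stronger in replicate 2, with 67.8 in replicate 1, 114 in replicate 2 and 168 in the pooled list, rank 539. Its ratio of 0.594 was above that of only 1.99% of optimal peaks, and its rank was 1159 in replicate 1 and 193 in replicate 2. The summit at 297849 was intergenic, at -31 bp from the start. Pi3K92E (FBgn0015279, chr3R:20628972-20634732, minus strand) measured 61.4 in replicate 1, 57.0 in replicate 2 and 118 in the pooled list, rank 1083. Its replicates were close, with a ratio of 1.08. The summit at 20634247 was in the 5′ UTR 485 bp after the only start, just inside the 500 bp limit, and no pooled summit lay within 200 bp of that start.

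The promoters of these 2 subunit genes are printed because they differ in sequence from those of Thor, scyl and chrb and from each other. They lie at chr3R:20634703-20634852 (minus strand) and chr2L:297760-297909 (plus strand), from 120 bases before to 29 after the representative TSS, on dm6. Capitals mark TATCGATA, the core of the DNA replication-related element (DRE), and the second sequence has no match to any of the 7 motifs.
Pi3K92E: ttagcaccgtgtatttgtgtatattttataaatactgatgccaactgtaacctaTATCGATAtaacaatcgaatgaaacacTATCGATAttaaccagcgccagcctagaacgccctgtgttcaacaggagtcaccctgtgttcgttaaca
Pi3K21B: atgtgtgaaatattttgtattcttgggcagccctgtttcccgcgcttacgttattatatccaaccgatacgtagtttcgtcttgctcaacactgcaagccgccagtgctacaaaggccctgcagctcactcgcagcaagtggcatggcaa

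Pi3K92E was the only one of the 10 with TATCGATA in its representative promoter, at -66 and -39 bp, and 9.23% of all promoters held it on either strand. The matches lay more than 500 bp from its NC2alpha summit. TATAAA occurred in Pi3K92E too, at -94 bp on the gene's strand, which is outside the usual distance. Over the 300-base window of each representative promoter, 6 of 10 genes held TATAAA on either strand (45.5% of all promoters), 5 held GAGAG (30.2%) and 5 held TCAGT, an Initiator core (52.1%). ACGTG, the core of the hypoxia response element, was found in scyl at -163 bp and in foxo at -122 bp, and in 23.3% of all promoters. GTAAACA was found in Pi3K92E at -140 bp, and GGTCACAC, the Ohler 1 motif, in none of the 10 (7.79% of all promoters). The letters of each motif were sought on both strands, a promoter counts once however many matches it holds, and matches may overlap, as some GAGAG matches in Thor do. Pi3K21B and S6k held none of the 7, which says only that these letters are not in that window. The GC content of the 10 windows ran from 27.3% in Tor to 55% in S6k, against a median of 38% for all protein-coding promoters.

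The kinase Akt, which the lipid product of phosphoinositide 3-kinase recruits, had its optimal peak outside the start-site window. The gene (FBgn0010379) lies at chr3R:16099228-16105670 on the plus strand. The peak measured 44.97 in replicate 1, 14.2 in replicate 2 and 86.8 in the pooled list, rank 1955, not far above the lowest optimal signal. Its ratio of 3.17 was higher than that of 94.9% of optimal peaks, and its rank in replicate 2 was 21679 of 30000. The summit at 16099891 was intronic, 663 bp after the first start, just outside the 500 bp limit. GTAAACA began 136 bp after that summit, and 10.7% of optimal peaks held it. At the first start itself, a peak outside the optimal list measured 20.4 in replicate 1, 18.3 in replicate 2 and 43.1 in the pooled list, and its summit was also within 500 bp of a start of Mhcl.

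foxo, the forkhead transcription factor that Akt inhibits, had optimal peaks on both sides of the gene and none at its starts. The gene (FBgn0038197) lies at chr3R:14056945-14087978 on the plus strand. The upstream peak at -4668 bp measured 34.9 in replicate 1, 60.2 in replicate 2 and 99.5 in the pooled list, and its ratio of 0.579 exceeded only 1.67% of optimal peaks. A second upstream peak, at -3290 bp, measured 43.7 in replicate 1, 48.1 in replicate 2 and 95.8 in the pooled list. The third, at 14088989 beyond the end of the gene, measured 44.9 in replicate 1, 43.4 in replicate 2 and 92.0 in the pooled list. It lay 31070 bp from the nearest start of foxo. A pooled peak beside it, outside the optimal list with its summit at 14089209, had the same replicate values and lay at a start of Npc2b. All 3 optimal peaks were intergenic, and an intergenic peak may belong to either neighbour. At the start, the strongest peak lay at -248 bp and measured 51.9 in replicate 1, 29.4 in replicate 2 and 78.5 in the pooled list, just below the lowest optimal signal. TCAGT began at -5, 1 and 8 bp from that start.

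Tor, the kinase at the centre of nutrient sensing, and S6k, the kinase it activates to raise ribosomal protein S6 phosphorylation, stood on either side of the optimal limit. S6k (FBgn0283472, chr3L:5797549-5810931, minus strand) measured 42.4 in replicate 1, 38.0 in replicate 2 and 85.6 in the pooled list, rank 2018. Tor (FBgn0021796, named mTor in the annotation, chr2L:13004480-13013197, plus strand) measured 38.2 in replicate 1, 37.9 in replicate 2 and 79.0 in the pooled list, rank 2320. Their replicate values lay within a few units of each other, so that presence in the optimal list separates them more than the signals do. Both summits were intergenic and within 500 bp of a start of a neighbouring gene, at -10 bp from S6k with kri on the other side and at -315 bp from Tor with Vha68-1. These peaks cannot be given to one gene of each pair.

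**Figure D3:**
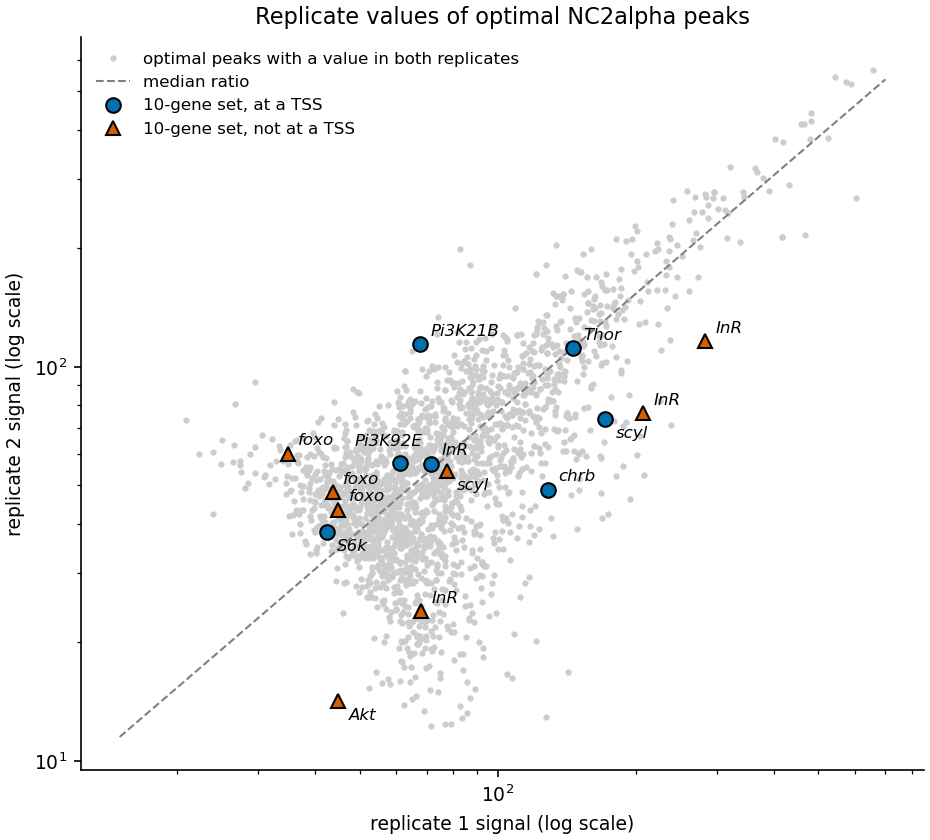
Replicate 2 signal (vertical axis) is plotted against replicate 1 signal (horizontal axis), both on log scales, for optimal peaks found in both lists (grey). Circles are peaks of the 10 genes at a TSS, triangles are their other optimal peaks, and the dashed line is the median ratio of replicate 1 to replicate 2, 1.31. Thor lies on the line. Pi3K21B, Pi3K92E, S6k, the foxo peaks and, narrowly, the InR start-site peak lie above it. The peaks of chrb, scyl and Akt and the InR intronic peaks lie below it.

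Altogether the 10 genes had 15 optimal peaks, of which 7 were at a start and 8 were not, among 109 pooled peaks in their intervals. Of the 15, 12 were stronger in replicate 1, and 8 had a ratio above the median of all optimal peaks. The order of the pooled start-site signals was Thor, scyl, chrb, Pi3K21B, InR, Pi3K92E and S6k, followed outside the optimal list by Tor, foxo and Akt. Genes in that order changed places between the replicates. In replicate 1 scyl (172) was above Thor (146), and in replicate 2 Pi3K21B (114) was above Thor (111) and scyl (73.8), and chrb (48.8) was also below Pi3K92E (57.0) and InR (56.8). In the pooled list Tor (79.0) and foxo (78.5) differed by less than the replicates of foxo did.

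The genes nearest in pooled signal, over the 2 replicates of this single group, came from optimal peaks at starts elsewhere in the genome. Thor stood between CG3009 (258) and Ptp4E (255), and scyl between lncRNA:CR44380 (243.6) and a peak shared by CG7130 and RpLP0 (243.0). chrb stood between a peak of lncRNA:CR45618 and prtp (174.3) and one of CG5823 and P5cr-2 (173.0). InR stood between lig (131.5) and a peak of CG4887 and Charon (130.9), and Pi3K21B between Rgl (168.3) and by (168.0). Pi3K92E stood between CG42613 (118.3) and Syx4 (118.2), and S6k between a peak of Dcp-1 and pita (85.65) and one of Cpsf100 and beta4GalNAcTB (85.25).

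Of 66 other genes of the pathway, listed with earlier results known, 13 (19.7%) had an optimal summit at a start and 42 (63.6%) a pooled one, and 24 had no pooled peak there. The shares among all protein-coding genes were 10.5% and 51.3%, and nothing is read from the differences. The 13 were spread over most steps and included inhibitors and activators. Sesn, the sestrin that restrains Tor when amino acids are short, measured 252 in replicate 1, 191 in replicate 2 and 442 in the pooled list, more than any start-site peak of the 10 genes. Its summit was also near a start of CG46429. sgg, the fly GSK3 and a target of Akt, measured 183 in replicate 1, 136 in replicate 2 and 321 in the pooled list. REPTOR, a transcription factor that Tor holds in check, measured 132 in replicate 1, 69.4 in replicate 2 and 199 in the pooled list. ImpL2, a secreted protein that binds insulin-like peptides, measured 107 in replicate 1, 42.2 in replicate 2 and 149 in the pooled list, near a start of CG46460 as well. These 4, and also SNF4Agamma (146 in the pooled list), exceeded the pooled signal of InR's start-site peak. Sesn and sgg exceeded that of Thor.

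The remaining 9 optimal peaks of those genes ranged from 83.5 to 146 in the pooled list. SNF4Agamma, a subunit of the energy sensor AMPK, measured 66.01 in replicate 1 and 71.2 in replicate 2, and melt, a regulator of Tor and foxo at the membrane, measured 83.0 and 52.3. Pdk1, which phosphorylates Akt, measured 73.6 and 25.1. Lamtor3, of the Ragulator complex, measured 62.7 and 60.1 at a start region shared with fws, and Hph, the prolyl hydroxylase that senses oxygen, measured 63.6 and 44.8. The 14-3-3 proteins that bind phosphorylated foxo both had peaks, with pooled signals of 108 at 14-3-3zeta (53.5 in replicate 1 and 52.6 in replicate 2) and 83.5 at 14-3-3epsilon (53.2 and 44.4). The amino acid transporter path measured 62.0 in replicate 1 and 20.03 in replicate 2. The summits at 14-3-3zeta and Hph also lay near starts of RpLP0-like and lncRNA:CR45793.

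By step, optimal start-site peaks were found at 3 of 6 adaptor and phosphoinositide genes, 3 of 5 foxo and GSK3 partners of Akt, 2 of 15 Rag, Ragulator and GATOR genes, 2 of 7 energy and oxygen genes, 1 of 3 amino acid transporters, 1 of 10 ligand and binding-protein genes and 1 of 12 outputs. None was found at the 3 TSC and Rheb genes or the 5 TOR complex genes. Among all protein-coding genes the share was 10.5%, so that none in groups of 3 or 5 genes says little. Of the 10 ligand and binding-protein genes, 7 had no pooled peak at a start, among them Ilp1, Ilp2, Ilp3, Ilp4, Ilp6 and Ilp7. Only 51.3% of all protein-coding genes had a pooled peak there. The 5 strongest peaks outside the optimal list were at Mnt (80.8), Lnk (77.0), Wdr24 (76.8), step (71.3) and Myc (62.6). The summits at Wdr24, step and Myc also lay near starts of IntS11, CG1416 and lncRNA:CR44999, in that order. Mnt, an antagonist of Myc, measured 50.6 in replicate 1 and 28.7 in replicate 2, whereas the peaks of Myc, a growth-promoting transcription factor, and of Lnk, an adaptor of InR, overlapped no peak in the replicate 2 list. chico, the insulin receptor substrate, had no pooled peak at a start.

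**Figure D4:**
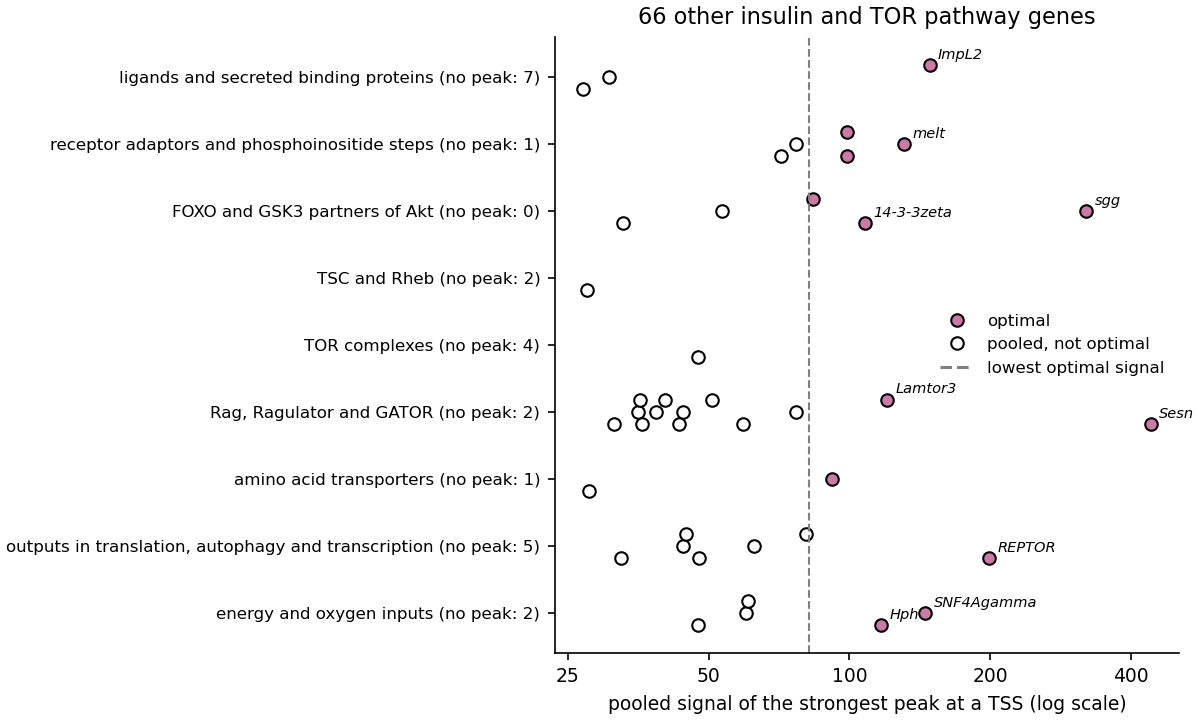
The pooled signal of the strongest peak at a TSS, on a log scale, is shown for the 42 of 66 other pathway genes that had one, by step of the pathway; the number without one is given in each label. Filled points are optimal peaks, and the dashed line is the lowest optimal signal. The filled points run from 14-3-3epsilon at 83.5 to Sesn at 442, and none is in the rows of TSC and Rheb (3 genes) or TOR complexes (5 genes).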

How the data were processed

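Immunoprecipitated DNA of 2 biological replicates of whole embryos, 1 group, was analysed from the deposited dm6 peak lists. Per the deposited notes, peak calling was done by the authors on each replicate and on the pooled replicates, each against a control alignment, and the optimal list came from an irreproducible discovery rate threshold. No source used here gives the peak caller, aligner or threshold. The signal of each peak, its -log10 q value (at most 3.59) and its summit offset in bp (other) were used as the authors deposited them. The lists on dm3 were not used here.

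Summits, counted from 1, were assigned to each gene with a TSS within 500 bp, and otherwise to the gene body or to the intergenic interval up to the next gene, in Ensembl release 115. 9 of 10 symbols matched directly, and Tor matched through RefSeq. The representative TSS has the most transcripts. Sequence came from the RefSeq Release 6 genome. The genes and lists were chosen with earlier results of these data known. Named genes are the 10, the other pathway genes with an optimal peak at a start and the 5 strongest without, and the neighbours in signal. The Ilp genes and chico were named after their values were seen, and of the 13 other pathway genes with an optimal peak at a start, 1 is counted but not reported here by name. The alternatives were 2 other windows, 2 other list lengths, overlap or nearest-start assignment, other flanks and each replicate's list alone. Python 3.11.15 with numpy 2.4.6, pandas 2.3.3 and matplotlib 3.10.9 was used, and assignment was tested on simulated data. With peak lists alone the depth is unknown, and no interval for counting error was made.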

Additional observations from a re-analysis of the deposited data

How the results depend on the processing

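Of 60 alternatives computed, 22 were counts and 38 were ranks. Of the counts, 19 changed by at most 1.5 times. Of the ranks, 25 stayed within 1 SD of the replicate ranks and 13 moved further. That SD comes from the same 2 replicates, so close replicates make small shifts count as moved. Thor, at rank 188, counted as moved at 207 and 201, whereas Pi3K21B, at 539, did not at 193 and 1159. The split of 25 and 13 therefore does not measure stability. The number of the 10 genes with an optimal peak at a start, 7 in the report, was 6 within 200 bp (without Pi3K92E), 8 within 1000 bp (with Akt), 6 in the strongest 1087 peaks (without S6k) and 9 in the strongest 4348 (with foxo and Tor). It was 7 to 8 when either replicate was left out: replicate 2 alone added Tor, and replicate 1 alone lost S6k and gained foxo. The 9 genes with an optimal peak anywhere in the interval became 6 in the strongest 1087 peaks and 7 to 9 without a replicate: replicate 2 alone gained Tor and lost Akt, and replicate 1 alone lost Akt and S6k. The 13 other pathway genes became 8 within 200 bp, 7 in the strongest 1087 peaks, 21 in the strongest 4348 and 13 to 18 without a replicate. Within 1000 bp InR rose to rank 66 and Akt to rank 1955, since their peaks just outside 500 bp were then counted. Without replicate 1, ranks went from 219 to 543 at scyl, 498 to 1219 at chrb and 539 to 193 at Pi3K21B. Without replicate 2, they were 123 at scyl, 272 at chrb, 1159 at Pi3K21B, 3129 at S6k, 3909 at Tor and 15628 at Akt. Within 200 bp Pi3K92E and Tor had no pooled peak and so no rank. No paired analysis was possible because there was 1 group. With 2 replicates, no untagged line analysed here and a signal of unknown scale, differences in signal between genes have no error beyond the 2 replicate values.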
